A study of Mus musculus with 46 samples.

Results

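The genes described here are the mouse Toll-like receptors Tlr1, Tlr2, Tlr3, Tlr4, Tlr6, Tlr7, Tlr8, Tlr9 and Tlr13 and the adaptor Myd88. They were chosen by name as the rows of the expression table for this receptor family and its main adaptor, 10 of 48795 genes, across all 8 groups of samples. The table holds 12 Toll-like receptors in all, and Tlr5, Tlr11 and Tlr12 are described with the other genes of the pathway. All 10 genes passed the filter on low values in each comparison.

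Toll-like receptors recognise molecules shared by whole classes of microbes, and some molecules released by damaged host cells. Those at the cell surface bind lipids and lipoproteins, whereas those in endosomes bind nucleic acids, and apart from Tlr3 these receptors signal through Myd88 to the transcription factors NF-kB, AP-1 and the interferon regulatory factors. In tumors they are known mainly from macrophages, monocytes and dendritic cells, where they drive the release of cytokines and the maturation of antigen-presenting cells.

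RNA was sequenced from 46 samples of MC-38, a colon carcinoma line of C57BL/6 origin, either as cultured cells (3 samples) or as subcutaneous tumors in the flank of mice. In the antibody study, female C57/BL6NTac mice were 8 to 10 weeks old and carried no engineered allele. Their tumors were 3 taken at baseline, 5 from mice given isotype control and 5 given the PD-1 antibody muDX400 (PD-1 Ab, 5 mg/kg into the peritoneum every 4 days) at 4 day, and 5 of each kind at 8 day. These label times count from randomization on day 7 post-implant, so they are days 11 and 15 post-implant, after 1 and 2 doses. In the genetic study, 10 tumors labelled PD-1cKO came from mice with a tamoxifen-inducible Cre in the ubiquitously active Rosa26 locus and loxP sites around exons 2 and 3 of Pdcd1, so deletion was not limited to T cells. The line was bred to give mice with and without this Cre, the 10 tumors labelled WT came from littermate controls, and both groups received tamoxifen at 40 mg/kg on 5 consecutive days. The labels give 28 day for both, which the paper counts from implant where it reports these results and which differs from the day in its methods. Each sample from mice is 1 tumor, and p-values measure the spread between these tumors and, against cultured cells, also between the 3 cultures.

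Values are FPKM, the fragments of a gene scaled to the length of its transcripts and to the mapped fragments of the sample, so levels of different genes can be compared per length. The number of reads per sample cannot be recovered from them. In 1 isotype control tumor of 4 day (replicate 1), mitochondrial genes held 54.6% of the FPKM, against 3.45% to 4.44% in the other tumors of 4 day. Short noncoding RNAs held 30.2% to 54.6% of the FPKM in WT tumors and 31.1% to 66.5% in PD-1cKO tumors but under 0.1% in every sample of the antibody study, so levels are compared within each study. Pdcd1, the targeted gene, had a mean of 9.61 FPKM in tumors labelled PD-1cKO and 3.30 in WT tumors. A value over the whole gene does not separate exons 2 and 3 from the rest and therefore does not check the label. In the cultured cells the 4 epithelial markers (Epcam, Cdh1, Krt8 and Krt18) were each under 0.5 FPKM.

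Positions are those of GRCm38. Tlr1 (chr5:64924679-64933563) and Tlr6 (chr5:64952031-64960097) are neighbours on the minus strand and share 454 stretches of 50 bases, 13.6% of those of Tlr1 and 12.3% of those of Tlr6, so reads from the shared part may have been split between them. Tlr8 (chrX:167242696-167264329, minus), Tlr7 (chrX:167304929-167330558, minus) and Tlr13 (chrX:106143204-106160493, plus) are on the X chromosome, and Tlr9 (chr9:106222598-106226883, plus) and Myd88 (chr9:119335934-119341411, minus) on chromosome 9. Myd88 lies within the annotated span of Slc22a14 on the same strand but shares no 50-base stretch with it. Tlr3 overlaps an antisense gene, Gm45542, over 698 bases, and Myd88 overlaps the protein-coding gene Acaa1a on the opposite strand over 1736 bases.

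Promoter windows of 300 bases around the start of the RefSeq transcript (GRCm38.p6) were found for 8 of the 10 genes and not for Tlr4 and Tlr7. They are shown for the 4 receptors that rose at 8 day and for Myd88, which did not pass the test there. Each reads 5′ to 3′ on the strand of the gene. Capitals mark the core bound by PU.1, a factor of the myeloid lineage (GAGGAA, or TTCCTC where it lies on the other strand), in Tlr1, Tlr8, Tlr9 and Tlr13. In Tlr9 they also mark an AP-1 element (TGAGTCA, here as TGACTCA on the other strand), and in Myd88 an interferon response element (GAAA repeated after a gap of any 2 bases).
Tlr1, chr5:64933509-64933808, minus strand: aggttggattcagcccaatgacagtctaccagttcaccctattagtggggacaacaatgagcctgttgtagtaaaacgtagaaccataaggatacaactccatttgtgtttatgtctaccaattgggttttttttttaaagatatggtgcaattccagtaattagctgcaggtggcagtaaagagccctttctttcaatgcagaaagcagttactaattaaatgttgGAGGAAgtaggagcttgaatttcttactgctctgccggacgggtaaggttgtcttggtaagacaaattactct
Tlr8, chrX:167264280-167264579, minus strand: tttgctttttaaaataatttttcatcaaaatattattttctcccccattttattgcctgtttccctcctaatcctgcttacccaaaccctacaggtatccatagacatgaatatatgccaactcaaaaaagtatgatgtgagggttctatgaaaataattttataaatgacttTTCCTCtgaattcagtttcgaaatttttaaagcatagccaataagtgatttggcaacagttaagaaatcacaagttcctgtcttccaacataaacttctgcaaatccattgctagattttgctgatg
Tlr9, chr9:106222348-106222647, plus strand: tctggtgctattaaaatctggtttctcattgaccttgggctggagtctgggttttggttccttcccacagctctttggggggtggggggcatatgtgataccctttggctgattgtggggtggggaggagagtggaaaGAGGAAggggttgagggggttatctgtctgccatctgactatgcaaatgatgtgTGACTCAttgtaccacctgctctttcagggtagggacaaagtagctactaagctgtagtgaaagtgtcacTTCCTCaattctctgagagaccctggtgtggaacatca
Tlr13, chrX:106143025-106143324, plus strand: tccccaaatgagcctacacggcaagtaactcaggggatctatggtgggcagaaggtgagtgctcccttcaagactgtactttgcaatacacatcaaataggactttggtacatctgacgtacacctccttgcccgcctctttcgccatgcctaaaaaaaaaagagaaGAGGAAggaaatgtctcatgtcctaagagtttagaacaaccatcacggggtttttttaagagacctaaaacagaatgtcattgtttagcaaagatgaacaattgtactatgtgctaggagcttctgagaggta
Myd88, chr9:119339969-119340268, minus strand: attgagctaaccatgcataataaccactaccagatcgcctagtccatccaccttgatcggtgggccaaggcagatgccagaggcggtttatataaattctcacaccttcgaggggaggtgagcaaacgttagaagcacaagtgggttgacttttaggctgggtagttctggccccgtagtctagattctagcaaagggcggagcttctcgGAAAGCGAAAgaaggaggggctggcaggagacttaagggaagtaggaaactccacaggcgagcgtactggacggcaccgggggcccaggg

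The PU.1 core occurred 2 times in the window of Tlr9 and 1 time in those of Tlr1, Tlr8 and Tlr13. It occurred 0 times in those of Tlr2, Tlr3, Tlr6 and Myd88 and in a second window of Tlr1. Of all 32851 promoter windows searched in the same way, on both strands, 28.3% held this core. The interferon element was found 1 time for Myd88 and, as 2 overlapping matches, in a window of Tlr6, against 3.44% of all windows, and the AP-1 element for Tlr9 alone among these genes, against 5.20%. The windows of Tlr1 (3), Tlr8 (1), Tlr9 (0) and Tlr13 (5) held fewer CpG dinucleotides than those of Tlr3 (10), Tlr2 (11) and Myd88 (13), where the median of all windows was 7. The second window of Tlr1 held 9, and those of Tlr6, which was not called at 8 day, held 5 and 7. These matches describe letters in a window and not sites of binding.

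Cultured MC-38 cells already expressed some of these genes. In the 3 cultures the highest level was that of Myd88, at 11.7 ± 0.337 FPKM (SD, n = 3), followed by Tlr3, the receptor for double-stranded RNA, at 6.57 ± 0.574. The lipopolysaccharide receptor Tlr4 stood at 5.90 ± 0.553 and Tlr2, which binds lipoproteins together with Tlr1 or Tlr6, at 4.79 ± 0.322. Tlr3 and Tlr4 differed by less than their summed SDs. Tlr6 stood lower, at 1.37 ± 0.194, and Tlr1 at 0.217 ± 0.0991. The remaining endosomal receptors were near or at 0 in culture, with Tlr7 at 0.0325 ± 0.0152, Tlr13 at 0.0108 ± 0.0117 and Tlr8 and Tlr9 listed at 0 in all 3 cultures. The leukocyte marker Ptprc was at most 0.0078 FPKM there, and the macrophage markers Adgre1, C1qa and C1qb were listed at 0.

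In isotype control tumors of 8 day, 6 of the 10 genes were called higher than in culture, against 14.2% of all 15199 genes tested (limma, Benjamini-Hochberg adjusted p under 0.01 and at least 2-fold, on log2(FPKM + 0.1)). Tlr1 rose to 4.58 ± 0.507 FPKM (SD, n = 5), a log2 fold change of 3.92 (limma adjusted p = 4.96e-07), and Tlr2 to 13.8 ± 1.20, a log2 fold change of 1.50 (limma adjusted p = 2.73e-06). Tlr7, which binds RNA, rose to 2.34 ± 0.939, and Tlr13, which binds bacterial ribosomal RNA, to 4.70 ± 1.35 (log2 fold changes of 4.11 and 5.38). The culture means of both lie below the 0.1 FPKM that was added, and with 1 FPKM added the log2 fold changes of Tlr1, Tlr7 and Tlr13 were 2.19, 1.64 and 2.46. Tlr8 and Tlr9 reached 2.17 ± 1.23 and 3.26 ± 1.36, with no fold against cultures listed at 0. Myd88 passed the adjusted p alone, with a log2 fold change of 0.92 (limma adjusted p = 6.92e-05), so that 7 of 10 passed with no fold limit, against 20.2% of all genes that did so upward. Tlr4 was the member with a lower mean in tumors, 3.17 ± 1.12 against 5.90 FPKM, and all 5 tumors were below every culture (against 33.0% of all genes), but the difference missed the limit (log2 fold change -0.95, limma adjusted p = 0.0244). Tlr6 (0.64, adjusted p = 0.0155) and Tlr3 (0.28, adjusted p = 0.180) also missed it in this limma fit.

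**Figure D1:**
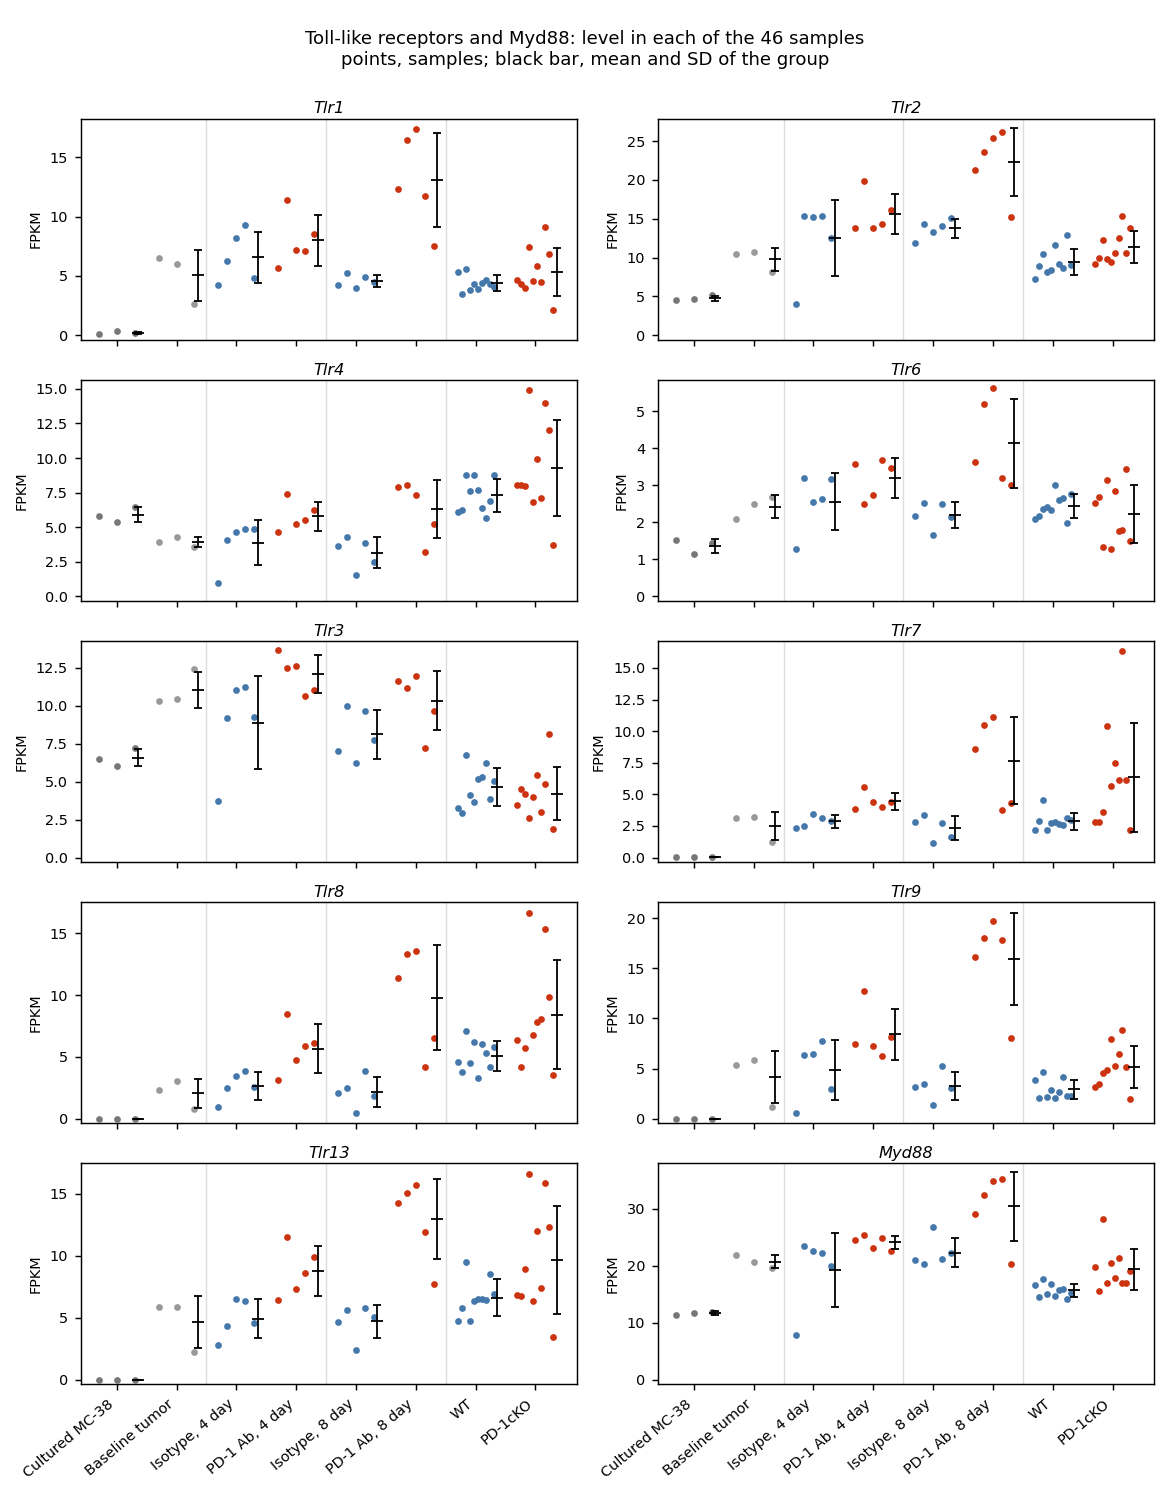
FPKM of each of the 10 genes in all 46 samples, by group, with 1 panel per gene; points are samples, and the bar and whisker are the group mean and SD. Tlr8 and Tlr9 are listed at 0 in the 3 cultures, and the PD-1 Ab tumors of 8 day hold the highest group means of the antibody study for all genes but Tlr3.

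Among isotype control tumors of 8 day the levels fell in a clear order only at the top. Myd88 (22.3 FPKM), Tlr2 (13.8) and Tlr3 (8.11) were each separated from the next gene by more than the summed SDs. Below them followed Tlr13, Tlr1, Tlr9, Tlr4, Tlr7, Tlr6 and Tlr8, from 4.70 to 2.17, where neighbours did not differ beyond their spread. In PD-1 Ab tumors of 8 day Myd88 (30.4) and Tlr2 (22.3) remained at the top by mean, and Tlr9 stood next (16.0), ahead of Tlr1 (13.1), Tlr13 (12.9) and Tlr3 (10.3). No neighbours in that order differed by more than their summed SDs. In baseline tumors, means ran from 2.07 (Tlr8) to 20.7 (Myd88).

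Treatment with PD-1 Ab was compared with isotype control at 8 day to find which receptors accompany PD-1 blockade. Tlr1, Tlr8, Tlr9 and Tlr13 were called higher, 4 of 10, against 5.03% of all 15062 genes tested (limma, adjusted p under 0.01 and at least 2-fold). Of these, 1 of the 4 surface receptors and 3 of the 5 endosomal receptors rose, and Myd88 did not pass. With no fold limit Tlr2 was added, 5 of 10, against 6.69% of all genes. That count ranged from 2 to 8 when single tumors were left out. Tlr2 passed in 3 of 18 alternatives, and Tlr6 and Myd88 passed without treated replicate 5 (adjusted p = 0.00576 and 0.00262). The median log2 fold change of the 10 genes was 1.21, beside -0.04 for all genes tested. Values in all 5 treated tumors were above every control for 7 genes (Tlr1, Tlr2, Tlr6, Tlr7, Tlr8, Tlr9 and Tlr13), against 9.23% of all genes. Since these are bulk tumors, more cells of a type and more RNA per cell cannot be told apart.

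Tlr1, which recognises triacylated lipopeptides with Tlr2, stood at 4.21, 5.23, 4.00, 4.93 and 4.51 FPKM in the 5 isotype control tumors and at 12.35, 16.45, 17.37, 11.71 and 7.52 in the 5 PD-1 Ab tumors. The groups did not overlap, and replicate 5 was the lowest of the treated tumors. Its log2 fold change by limma was 1.44 ± 0.20 (SE; adjusted p = 0.00123). Tlr2 stood at 11.93, 14.38, 13.34, 14.1 and 15.08 in controls and at 21.25, 23.59, 25.46, 26.15 and 15.21 in treated tumors. Here replicate 5 was within 1 FPKM of the highest control, and the log2 fold change by limma, 0.67 ± 0.14 (SE; adjusted p = 0.00821), was under 2-fold. Tlr6, which pairs with Tlr2 for diacylated lipopeptides, ranged from 1.66 to 2.51 in controls and from 3.01 to 5.62 in treated tumors. Although its groups did not overlap, its log2 fold change of 0.85 (SE 0.21) missed the limit (limma adjusted p = 0.0145). Tlr4 ranged from 1.55 to 4.29 and from 3.18 to 8.08, with overlap at replicate 4 of the treated tumors, and also missed it (log2 fold change 0.98, SE 0.31, limma adjusted p = 0.0408).

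The largest change of the 10 was that of Tlr9, the endosomal receptor for unmethylated CpG DNA. It stood at 3.20, 3.42, 1.39, 5.22 and 3.09 FPKM in isotype control tumors and at 16.12, 18.06, 19.72, 17.86 and 8.03 in PD-1 Ab tumors, and the log2 fold change by limma was 2.30 ± 0.32 (SE; adjusted p = 0.00122). All treated tumors were above the highest control, and replicate 5 was again the lowest. Tlr8, the neighbour and close relative of Tlr7, stood at 2.12, 2.53, 0.494, 3.89 and 1.80 in controls and at 11.39, 13.33, 13.57, 4.19 and 6.51 in treated tumors (log2 fold change 2.23, SE 0.48, limma adjusted p = 0.00804). Its control replicate 3 was the lowest of all, and treated replicate 4 was just above the highest control. Tlr13 stood at 4.70, 5.59, 2.42, 5.78 and 5.04 and at 14.21, 15.07, 15.69, 11.93 and 7.72, with no overlap (log2 fold change 1.46, SE 0.25, limma adjusted p = 0.00308). Tlr7 stood at 2.79, 3.40, 1.14, 2.77 and 1.59 and at 8.57, 10.51, 11.12, 3.80 and 4.31. Its groups did not overlap either, but treated replicates 4 and 5 stood apart from the other 3, and the log2 fold change of 1.64 (SE 0.37) lay just past the limit (limma adjusted p = 0.01005). Tlr7 was called when 1 FPKM was added in place of 0.1, under both other scalings, or without treated replicate 4 or 5.

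Tlr3 and Myd88 had the smallest differences at 8 day. Tlr3, the member that signals through Ticam1 and not through Myd88, ranged from 6.24 to 9.95 FPKM in controls and from 7.21 to 11.94 in treated tumors (log2 fold change 0.34, SE 0.17, limma adjusted p = 0.162). Myd88 stood at 21.01, 20.32, 26.79, 21.28 and 22.27 in controls and at 29.12, 32.46, 34.9, 35.29 and 20.39 in treated tumors. Of the treated tumors, 4 were above every control and replicate 5 was near the lowest control, and the log2 fold change by limma was 0.42 ± 0.15 (SE; adjusted p = 0.0575). The calls depended on single tumors: without treated replicate 1, 2 or 3 the count fell from 4 to 2, and it was 5 without replicate 4 or 5. The count was 3 without control replicate 1, 2 or 5, and Tlr1 and Tlr9 were called in every one of these fits.

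**Figure D2:**
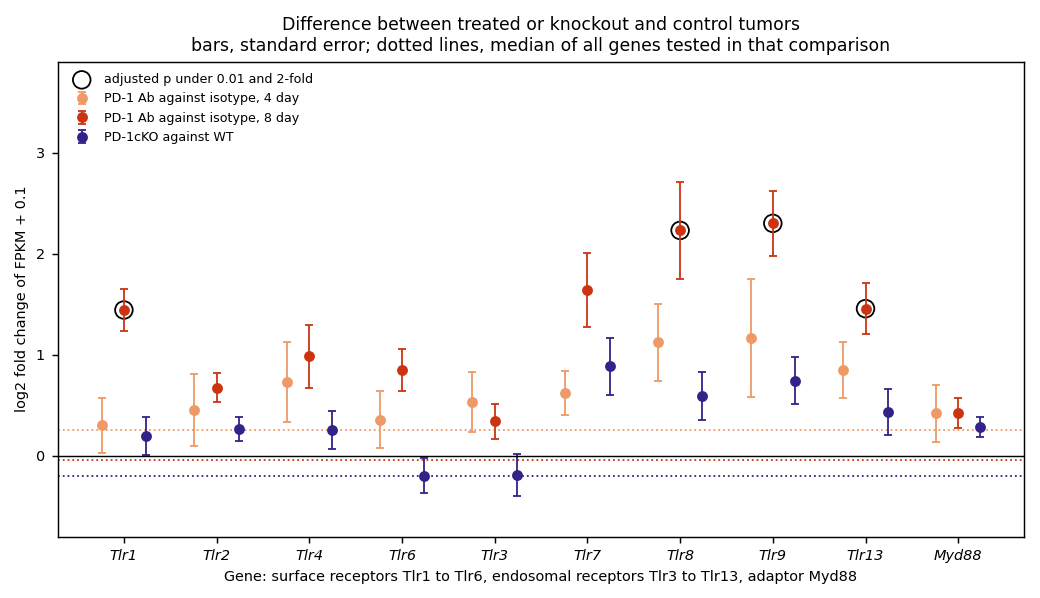
Log2 fold change with its SE for each of the 10 genes for PD-1 Ab and isotype control tumors of 4 day and of 8 day and for PD-1cKO against WT; circles mark called genes and dotted lines the median of all genes tested. At 8 day Tlr9 (2.30), Tlr8 (2.23), Tlr13 (1.46) and Tlr1 (1.44) are called, and in the other comparisons no gene of the 10 is.

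At 4 day, after 1 dose, 0 of the 10 genes were called with limma, where 0% of all 14556 genes were. At an unadjusted p under 0.05 the count was 3 (Tlr7, Tlr8 and Tlr13), against 5.83% of all genes. All 10 log2 fold changes were above 0, from 0.30 (Tlr1) to 1.17 (Tlr9), but the median of all genes was itself 0.26 and fell to 0.01 after median-of-ratios scaling. Relative to that median, Tlr9 stood at 0.91, Tlr8 at 0.86, Tlr13 at 0.59 and Tlr7 at 0.36. Tlr7 stood at 2.30, 2.47, 3.48, 3.13 and 2.91 FPKM in isotype control tumors and at 3.82, 5.61, 4.40, 4.02 and 4.38 in PD-1 Ab tumors, and it was the member whose 5 treated tumors were all above every control, against 3.59% of all genes. Tlr9 stood at 0.564, 6.40, 6.44, 7.80 and 2.92 and at 7.50, 12.8, 7.29, 6.29 and 8.19, with overlap. The control at 0.564 was the tumor with the high mitochondrial share, which was also the lowest control for all 10 genes. Without it 0 genes of the 10 were called, and the log2 fold changes of Tlr9 and Myd88 were 0.55 and 0.13, in place of 1.17 and 0.42. That of Tlr7 moved least (0.55 against 0.62, limma adjusted p = 0.0942 without this tumor). The 5 isotype control tumors of 4 day have sample identifiers from 2 runs of numbers and the PD-1 Ab tumors from 1 of these, and whether a run marks a batch is not stated.

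Whether the effect of PD-1 Ab differed between 8 day and 4 day was fitted as a difference of differences. Here 0 of 10 genes were called with limma (0% of 15289 genes), and at an unadjusted p under 0.05 the count was 2 (Tlr1 and Tlr7), against 2.03% of all genes that were higher. Tlr1 had a difference of 1.14 on the log2 scale (SE 0.35, limma adjusted p = 0.623) with a 95% interval from 0.41 to 1.87, and Tlr7 one of 1.01 (0.10 to 1.93). Intervals for Tlr9 (-0.33 to 2.60), Tlr8 (-0.22 to 2.43), Tlr13 (-0.20 to 1.41) and Myd88 (-0.68 to 0.70) include 0. Without isotype control replicate 1 of 4 day, the tumor with the high mitochondrial share, the difference was 0.59 for Tlr2, in place of 0.22, 1.75 for Tlr9, in place of 1.13, and 0.30 for Myd88, in place of 0.01.

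In tumors labelled PD-1cKO, 0 of the 10 genes were called against WT with limma, where 4.20% of all 15075 genes were called higher and 8.07% in either direction. At an unadjusted p under 0.05 the count was 5, against 18.0% of all genes that were higher. The 5 were Tlr7 (log2 fold change 0.89, SE 0.28, limma adjusted p = 0.0161), Tlr9 (0.74, SE 0.23, adjusted p = 0.0142), Tlr8 (0.59, SE 0.24, adjusted p = 0.0468), Myd88 (0.29, SE 0.10, adjusted p = 0.0248) and Tlr2 (0.27, SE 0.12, adjusted p = 0.0729). The median over all genes was -0.20, and it was -0.04 after median-of-ratios scaling. Under that scaling Tlr7 was called, at a log2 fold change of 1.04 (limma adjusted p = 0.00819), and Tlr9 (0.90, adjusted p = 0.00641) and Myd88 (0.45, adjusted p = 0.00603) passed with no fold limit. The share of called genes that were higher moved with the scaling too, from 52.0% to 73.4%.

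Tlr7 had a lowest, median and highest value of 2.16, 2.78 and 4.59 FPKM in the 10 WT tumors and of 2.16, 5.88 and 16.3 in the 10 PD-1cKO tumors. Of the PD-1cKO tumors, 6 were above every WT tumor, led by replicates 8 and 4 (16.3 and 10.4), and replicate 10 was as low as the lowest WT tumor. Tlr9 ranged from 2.11 to 4.67 (median 2.48) in WT tumors and from 1.99 to 8.84 (median 4.99) in PD-1cKO tumors, of which 6 were above every WT tumor. Tlr8 ranged from 3.34 to 7.12 (median 4.97) and from 3.51 to 16.7 (median 7.29), and Tlr13 from 4.71 to 9.53 (median 6.47) and from 3.47 to 16.6 (median 8.16). The SD among PD-1cKO tumors exceeded that among WT tumors for each of the 10 genes, with SDs of 4.31 against 0.684 for Tlr7. As a percentage of the mean, the SD of Tlr2 was not larger (18.0% in PD-1cKO and 18.1% in WT tumors). Whole libraries of PD-1cKO tumors were also less alike, with a median correlation between replicates of 0.928, against 0.973 in WT tumors. The share of all genes with a larger SD in PD-1cKO tumors is not given, so the wider spread is not shown to be particular to these genes. Tlr1 (log2 fold change 0.19, limma adjusted p = 0.403), Tlr4 (0.26, 0.269) and Tlr13 (0.43, 0.121) did not pass. Tlr6 and Tlr3 had log2 fold changes of -0.20 and -0.19, close to the median of all genes, and of -0.04 and -0.03 after median-of-ratios scaling.

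The sample identifiers of PD-1cKO tumors fall in 3 runs of numbers, of which 1 holds 7 PD-1cKO tumors and no WT tumor, 1 holds 1 PD-1cKO and 9 WT tumors, and 1 holds 2 and 1. With the run as a covariate 0 of the 10 genes were called with limma, and the log2 fold changes of Tlr7, Tlr9 and Tlr8 were 1.55, 1.12 and 0.95 (adjusted p of 0.0305, 0.0415 and 0.0969). No run holds enough tumors of both groups for a comparison of its own, and the label and the run can be told apart only in part.

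The effect of PD-1 Ab at 8 day was also set against that of the label PD-1cKO in 1 fit, where 0 of 10 genes were called with limma, against 0.0914% of all 16404 genes. The effects come from separate studies, at day 15 post-implant and at a label of 28 day, with unlike shares of short noncoding RNA. Model, day and library make-up cannot be told apart in this contrast. At an unadjusted p under 0.05 the count was 6, each with the larger effect under antibody, against 12.8% of all genes. The difference was 1.25 for Tlr1 on the log2 scale (95% interval 0.61 to 1.89, limma adjusted p = 0.0529) and 1.56 for Tlr9 (0.71 to 2.40, adjusted p = 0.0750). That of Tlr8 was 1.64 (0.62 to 2.66, adjusted p = 0.122) and that of Tlr6 was 1.05 (0.45 to 1.64, adjusted p = 0.0862). The median of all genes was 0.23 in this contrast, and relative to it Tlr8 stood at 1.40, Tlr9 at 1.32 and Tlr1 at 1.01. The interval of Tlr7 ran from -0.26 to 1.77 and that of Myd88 from -0.21 to 0.49, so neither a difference nor its absence was shown for them.

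Pathway genes came from a list of 62 by role, of which 59 were tested at 8 day and 58 in the genetic study. At 8 day 11 rose and 2 fell, with a median log2 fold change of 0.27, and in PD-1cKO tumors 6 rose and 3 fell, with a median of 0.16. The background share was 5.03% higher and 0.272% lower at 8 day, and 4.20% higher and 3.87% lower in PD-1cKO tumors. With the identifier runs as a covariate, 0 of these genes were called in PD-1cKO tumors in either direction. Without treated replicate 5 the count of genes that rose at 8 day was 18, and the count that fell was 1 in 9 of the 10 fits that left out a tumor. The count that rose in PD-1cKO tumors was 3 without PD-1cKO replicate 8, and the count that fell was 1 without WT replicate 6 or PD-1cKO replicate 4, 5, 7 or 8.

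Of the other receptors, Tlr11, which binds profilin of protozoan parasites, rose at 8 day from 0.205 ± 0.0933 to 1.66 ± 0.452 FPKM (SD, n = 5; log2 fold change 2.54, SE 0.31, limma adjusted p = 0.000885). Tlr12, its partner, passed with no fold limit at 8 day (log2 fold change 0.93, adjusted p = 0.00253) and in PD-1cKO tumors (0.57, adjusted p = 0.00794) in the limma fits. The flagellin receptor Tlr5 did not pass at 8 day (1.05, limma adjusted p = 0.0388). Of the 6 coreceptors and carriers, 3 rose at 8 day. These were Cd180, a receptor of B cells and myeloid cells related to Tlr4 (log2 fold change 1.78, limma adjusted p = 0.000991), its partner Ly86 (1.10, adjusted p = 0.00191) and the scavenger receptor Cd36 (2.01, adjusted p = 0.00394). The call for Cd36 was lost without control replicate 2 or treated replicate 1, 2 or 3 (adjusted p of 0.01053 to 0.01444). Cd14 and Ly96, which hand lipopolysaccharide to Tlr4 and bind it there, had log2 fold changes of 0.25 and 0.16. In PD-1cKO tumors Lbp, the lipopolysaccharide carrier, rose (1.05, limma adjusted p = 0.00653), a call lost without any of 6 WT tumors or without PD-1cKO replicate 4, 5, 7 or 8.

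Unc93b1, which carries nucleic acid receptors to endosomes, passed with no fold limit at 8 day, from 99.4 ± 12.5 to 194 ± 43.9 FPKM (SD, n = 5; log2 fold change 0.93, limma adjusted p = 0.00385), and in PD-1cKO tumors (0.77, adjusted p = 0.00102). At 8 day it no longer passed without control replicate 1 or 2 or treated replicate 1, 2 or 3 (adjusted p up to 0.0144). Hsp90b1, a chaperone of most of these receptors, was lower in PD-1cKO tumors with no fold limit (-0.97, limma adjusted p = 0.00190) and did not pass at 8 day (-0.32, adjusted p = 0.209). Among adaptors 1 of 3 tested rose at 8 day, Ticam2, which links Tlr4 to Ticam1 (2.06, limma adjusted p = 0.00136). Of the 13 kinases and ligases 1 rose, Ikbke, a kinase of interferon regulatory factors (1.74, limma adjusted p = 0.00101). In PD-1cKO tumors Ticam2 (log2 fold change 0.81) and Ikbke passed with no fold limit and were not called at 2-fold. They passed there in 20 and 28 of 29 alternatives. Of the 8 transcription factors 1 rose, Irf8, a factor of monocytes and dendritic cells, from 20.3 ± 2.62 to 62.0 ± 14.2 FPKM (1.58, limma adjusted p = 0.000806). Irf8 rose in PD-1cKO tumors as well (1.06, limma adjusted p = 0.000414), where 10 of 10 tumors were above every WT tumor, against 0.643% of all genes. Without PD-1cKO replicate 8 its log2 fold change was 0.99. None of the 5 inhibitors was called at 2-fold in either comparison, and their median log2 fold change was -0.10 at 8 day and 0.03 in PD-1cKO tumors.

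The target genes moved both ways. At 8 day 4 of 11 tested rose, the chemokines Ccl3 (log2 fold change 2.33) and Ccl4 (2.24), the interleukin subunit Il12b (2.20) and the nitric oxide synthase Nos2 (1.51), with limma adjusted p from 0.000885 to 0.00140. The neutrophil chemokine Cxcl1 fell, from 15.5 ± 5.45 to 4.12 ± 0.529 FPKM (-1.81, limma adjusted p = 0.00106). In PD-1cKO tumors Ccl4 (1.35), Nos2 (1.20) and Ccl3 (1.12) rose, and Cxcl1 (-1.18) and Il1b (-1.16) fell, with limma adjusted p from 0.00124 to 0.00753. The call for Il1b was lost under both other scalings and without any of 8 WT tumors or PD-1cKO replicate 4, 5, 7 or 8. Il12b had a log2 fold change of -0.06 there and of 0.08 after median-of-ratios scaling. It was the pathway gene whose effect differed between the models, with a difference of 2.27 (SE 0.33, limma adjusted p = 0.00120, background 0.0792% higher). That call was lost under upper-quartile scaling (adjusted p = 0.0146). Its level was low throughout, at 0.250 and 1.56 FPKM in control and treated tumors of 8 day and at 0.599 and 0.576 in WT and PD-1cKO tumors.

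Of the host-derived ligands, S100a8, a neutrophil protein that can act on Tlr4, fell at 8 day (log2 fold change -2.00, limma adjusted p = 0.00837) and rose in PD-1cKO tumors (2.47, adjusted p = 0.00944). Both calls depended on single tumors, and both were lost when 1 FPKM was added in place of 0.1 (adjusted p = 0.0101 and 0.0166). At 8 day the call was lost without any single tumor except control replicate 4 (adjusted p up to 0.0235). In the genetic study PD-1cKO replicate 7 reached 164 FPKM, where the median of its group was 3.31, and without it the log2 fold change was 1.95 (adjusted p = 0.0123). Hmgb1, a nuclear protein released by dying cells, fell in PD-1cKO tumors (-1.10, limma adjusted p = 0.00487), a call lost without WT replicate 6 or PD-1cKO replicate 4, 5, 7 or 8 and, at -0.94 and -0.93, under both other scalings. It did not pass at 8 day (-0.52, adjusted p = 0.0134).

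**Figure D3:**
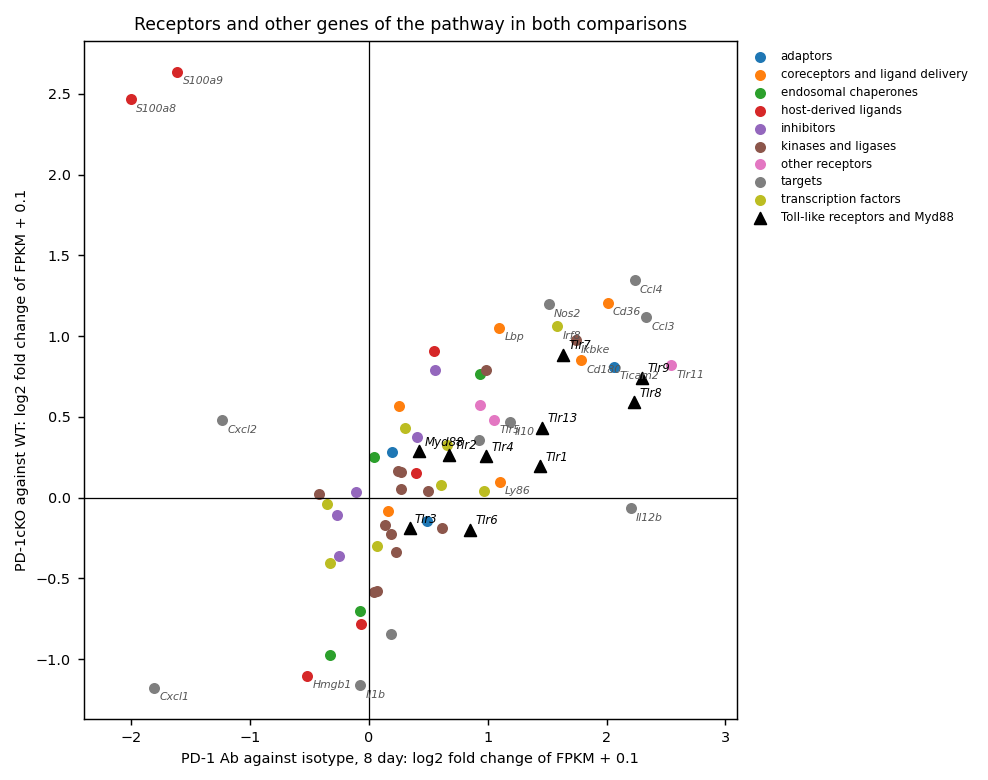
Log2 fold change of PD-1 Ab over isotype control tumors at 8 day (x axis) and of PD-1cKO against WT (y axis) for the 10 genes (triangles) and the tested genes of the pathway list (circles, coloured by role), with names for those farther than 1 from 0. Ccl4 (2.24 and 1.35) and Irf8 (1.58 and 1.06) lie high on both axes, Il12b (2.20 and -0.06) lies near 0 of the y axis, and S100a8 (-2.00 and 2.47) lies low on the first and high on the second.

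Markers of several cell types of the tumor differed in the same comparisons. The leukocyte marker Ptprc was not called at 8 day or in PD-1cKO tumors (log2 fold changes of 1.42 and 0.43). It ranged from 10.5 to 25.9 FPKM in isotype control tumors of 8 day and from 20.9 to 74.2 in PD-1 Ab tumors. The 8 macrophage and monocyte markers (Adgre1, Csf1r, Cd68, Mrc1, C1qa, C1qb, Ccr2 and Ly6c2) summed to 624 to 980 FPKM in isotype control tumors of 8 day and to 1152 to 2407 in PD-1 Ab tumors, and 6 of 8 were called higher. In WT tumors they summed to 723 to 1268 and in PD-1cKO tumors to 1031 to 3509, with 3 of 8 called higher. Their mean log2 level was higher by 1.36 at 8 day, 0.87 at 4 day and 0.81 in PD-1cKO tumors. All 4 T cell markers were called higher in both studies. Of the 5 conventional dendritic cell markers 2 were called higher at 8 day, with 0 of 4 tested in PD-1cKO tumors. These 5 markers already summed to 4.31 to 4.51 FPKM in the cultured cells, against 6.09 to 8.78 in isotype control tumors of 8 day. Their sum is therefore not particular to dendritic cells here. Of 5 B cell markers 4 were tested at 8 day and 1 in the genetic study, and 0 were called. Of 7 neutrophil markers, S100a8 among them, 5 were tested in each study. At 8 day 1 was called higher and 1, S100a8, lower, and 3 of 5 had log2 fold changes above 0. Their sum ran from 6.79 to 17.1 FPKM in controls and from 9.58 to 32.1 in treated tumors. In PD-1cKO tumors 2 were called higher, and all 5 had log2 fold changes above 0. Plasmacytoid dendritic cell markers, a type known for Tlr7 and Tlr9, summed to 0.610 to 0.949 FPKM in controls and 1.23 to 4.61 in treated tumors of 8 day, and 1 of 2 tested was called. The 3 adipose tissue markers had a median log2 fold change of 2.90 at 8 day (1 called) and 1.92 in PD-1cKO tumors (0 called), and the 4 endothelial markers medians of 1.43 (1 called) and 0.51 (0 called). Of the 3 skeletal muscle markers 1 was called higher at 8 day, and of the 4 fibroblast markers 2 in PD-1cKO tumors. The part of any of these cell types in the levels of the receptors was not tested.

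Set against the mean log2 level of the 8 macrophage markers in the same tumor, the 10 genes parted at 8 day. Tlr9 was higher relative to these markers by 0.94 in PD-1 Ab than in isotype control tumors, with all 5 treated tumors above every control, and Tlr8 by 0.87, with 4 of 5. Tlr7 (0.28), Tlr13 (0.10) and Tlr1 (0.08) moved about as much as the markers did. Tlr2 (-0.69) and Myd88 (-0.93) were lower relative to them, with all 5 treated tumors below every control. Tlr3 (-1.02) and Tlr6 (-0.51) were lower with 4 of 5 below every control, and Tlr4 (-0.38) with 1 of 5. In PD-1cKO tumors Tlr7 (0.07) was the 1 member above the markers, and Tlr6 (-1.01) was lowest, followed by Tlr3. At 8 day the markers themselves rose by 1.36, while the median log2 fold change of all genes tested was -0.04. A gene with no change of its own is therefore also lower relative to them. How often genes at large parted from the controls on this ratio was not computed. These ratios are descriptions without a test, and the macrophage markers were chosen with earlier results of these data known.

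**Figure D4:**
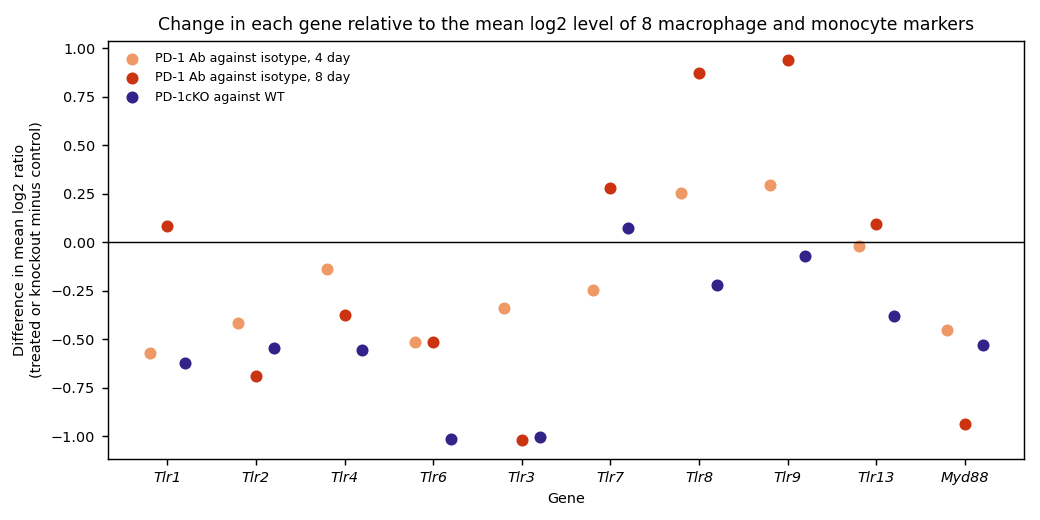
Change in the log2 level of each of the 10 genes relative to the mean log2 level of 8 macrophage markers, treated or PD-1cKO minus control tumors, in 3 comparisons; 0 means a change equal to that of the markers. At 8 day Tlr9 (0.94) and Tlr8 (0.87) lie above 0, and Myd88 (-0.93) and Tlr3 (-1.02) below it.

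Across the 43 tumors, after the mean of each group was removed, the log2 levels of the 45 pairs of the 10 genes had Pearson correlations from 0.00488 (Myd88 with Tlr7) to 0.868 (Tlr1 with Tlr13), with a median of 0.502. Both genes of a pair are measured in the same library of each tumor, so its RNA make-up enters both values. The correlations are given as descriptions. Tlr13 was close to Tlr8 (0.839) and Tlr7 (0.832) as well, whereas Myd88 was closest to Tlr2 among the receptors (0.718). Over 13228 genes, the one most like Tlr1 was Cd180 (0.908), that most like Tlr8 was Ptprc (0.915) and that most like Tlr9 was the leukocyte integrin Itgal (0.929). Myd88 was most like Ifi30 (0.908), an interferon-induced enzyme of lysosomes, and Tlr2 most like Smpdl3b (0.891). For Tlr4, Tlr6, Tlr3 and Tlr7 the gene most alike was Kdm6a (0.936), Zfp870 (0.823), Rnpc3 (0.869) and Zfp810 (0.871). Correlations with Ptprc ranged from 0.915 for Tlr8 and 0.865 for Tlr13 down to 0.356 for Tlr2 and 0.0984 for Myd88. With the mean log2 level of the 8 macrophage markers these genes stood close together, at 0.64, 0.596, 0.602 and 0.561. The lowest correlations with those markers were those of Tlr6 (0.282) and Tlr3 (0.1), so the order depended on the marker used.

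**Figure D5:**
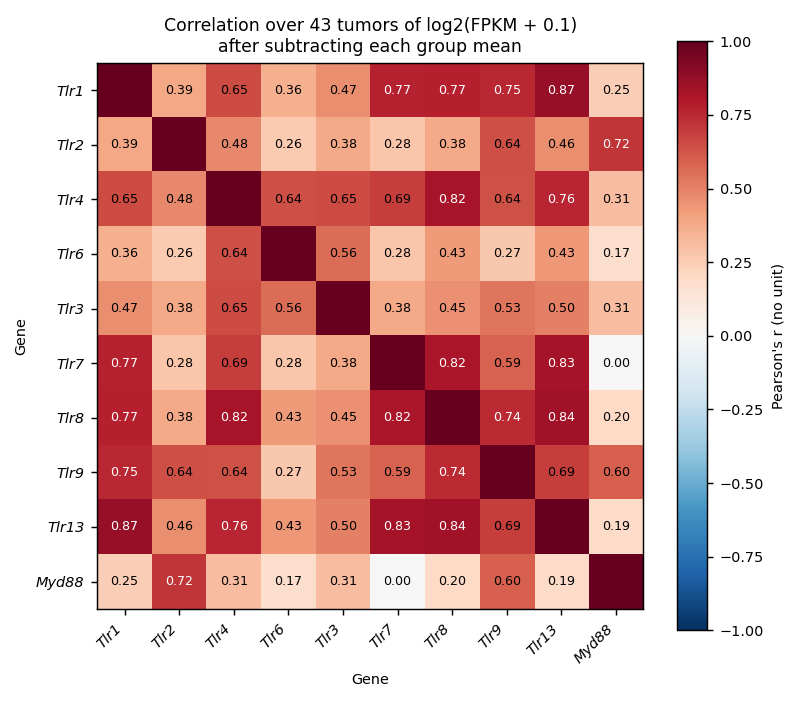
Pearson correlation of log2 levels between the 10 genes over 43 tumors, after the mean of each group was removed; colour gives the coefficient. Tlr13 with Tlr1 is highest at 0.868, followed by Tlr13 with Tlr8 (0.839) and with Tlr7 (0.832) and by Tlr8 with Tlr4 (0.823), and Myd88 with Tlr7 is lowest at 0.00488.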

How the data were processed

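RNA of 46 samples was measured as stranded, ribosome-depleted total RNA and read as paired ends of 50 bases. The authors aligned the reads with the Omicsoft aligner (mouse build B38), quantified Ensembl genes and deposited FPKM values, which hold no read depth per sample, so precision here is the spread between replicates. The authors tested counts with DESeq2, and counts cannot be rebuilt from FPKM, so the limma test on log2 values took its place. Symbols came from GENCODE M21 for 99.1% of the 48795 gene identifiers, and promoter sequences from RefSeq.

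Groups followed the sample labels. Where the mean of a compared group reached 0.5 FPKM, a gene was fitted on log2(FPKM + 0.1) by limma 3.58.1 (R 4.3.3, lmFit and trended eBayes), with Benjamini-Hochberg adjustment over all genes tested. A gene was called at an adjusted p under 0.01 and 2-fold, and also counted with no fold limit. Fold changes on this scale understate changes of low genes. The fit was tested on simulated data. The text names the 10 members always, and of each pathway list the called genes with the largest changes (up to 4 a list and comparison). Up to 2 genes a list that were not called could be named as well, here Unc93b1 and Hsp90b1. Other genes named, among them Tlr5, Tlr12, Cd14 and Ly96, were added to describe their lists. The members and the lists were chosen with earlier results of these data known. Alternatives were another pseudocount, filter, scaling, variance model or set of samples, a replicate block, a covariate for runs of sample identifiers, and leaving out each replicate. Python 3.11.15 with pandas 2.3.3 and numpy 2.4.6 handled the tables, and matplotlib 3.10.9 drew the plots. No sample was left out. The macrophage list was shortened by 1 marker after its values were seen, and some items are not reported here.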

Additional observations from a re-analysis of the deposited data

Results flagged for a closer look

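Single tumors stood far from the rest of their group for several genes, by Dixon's criterion at the 95% level, which chance alone exceeds in about 1 in 20 groups. Isotype control replicate 1 of 4 day was the low value for Tlr2 (3.97 FPKM), Tlr4 (0.995), Tlr3 (3.70) and Myd88 (7.96), and it is the tumor with 54.6% of its FPKM in mitochondrial genes. WT replicate 3 was the high value for Tlr7 (4.59), Ikbke (13.0), Ccl3 (4.95) and Ccl4 (9.31). PD-1cKO replicate 3 was high for Myd88 (28.3), and PD-1 Ab replicate 5 of 8 day was low for Unc93b1 (119). S100a8 was high in WT replicate 9 (4.16) and in PD-1cKO replicate 7 (164).

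The effect on Il12b differed between the models, by 2.27 on the log2 scale (limma adjusted p = 0.00120), where day and library make-up differ too. All 5 PD-1 Ab tumors of 8 day were above every isotype control tumor, and the log2 fold change in PD-1cKO tumors was -0.06.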

How the results depend on the processing

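At 8 day the count of 4 called genes of the 10 became 2 with no filter on low values, where more genes are tested, and ranged from 2 to 5 when single tumors were left out. In PD-1cKO against WT the count of 0 became 1, Tlr7, with median-of-ratios and with upper-quartile scaling, and ranged from 0 to 1 when single tumors were left out (1 without PD-1cKO replicate 10). The count against cultured cells was 6 in every fit that left out a sample, and those at 4 day and for both differences of effects were 0. The labels number the replicates of each group, but these numbers did not pair the tumors: correlations of deviations between same-numbered samples exceeded 0.1 in 1 of 5 pairs at 4 day, 0 of 5 at 8 day and 1 of 10 in the genetic study. With the replicate number as a block the count at 8 day was 2, Tlr1 and Tlr9, and no other count of the 10 genes changed. The call of Il12b for the difference between models was lost under it (adjusted p = 0.0378). With that block, 3 and 2 pathway genes rose and fell in PD-1cKO tumors, in place of 6 and 3, and 9 and 1 at 8 day, in place of 11 and 2. With 1 FPKM added in place of 0.1, 3 rose and 1 fell in PD-1cKO tumors, and 1 fell also with no filter and under both other scalings. At 8 day 1 fell with 1 FPKM added, with no filter and with all tumor groups in 1 fit. With no filter Cd36, S100a8 and Unc93b1 no longer passed at 8 day, nor did Lbp, Il1b, Hmgb1 and S100a8 in PD-1cKO tumors, and with all tumor groups in 1 fit Cd36, S100a8 and Unc93b1 did not at 8 day. With 1 FPKM added, Ccl3, Cxcl1, Il1b and Lbp were under 2-fold in PD-1cKO tumors.

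Values near 0 changed sign. The difference between models for Myd88 (0.14) became -0.078 and -0.13 under median-of-ratios and upper-quartile scaling. The difference between time points for Tlr3 (-0.19) became 0.081 and 0.016 under these, and ranged from -0.30 to 0.097 when single tumors were left out, and that for Myd88 (0.01) from -0.090 to 0.30. Il12b in PD-1cKO tumors (-0.06) became 0.077, 0.087 and 0.25 with median-of-ratios scaling, upper-quartile scaling and the runs as a covariate, and ranged from -0.14 to 0.041 when single tumors were left out. Il1b at 8 day (-0.07) ranged from -0.22 to 0.074. Over all alternatives, and judged on the adjusted p alone with no fold limit, values for the 10 genes kept their direction and side of the limit in 1379 cases, no longer passed in 29, newly passed in 25 and changed sign in 17. The cause was not tested. Without depth, low levels such as Il12b or Tlr11 have no counting error, and 4 day had 1 control of doubtful quality.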
